A study of Mus musculus with 3 samples.

Results

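In 3 ATAC-seq libraries of mouse embryonic stem cells, 14916 regions of open chromatin lay inside protein-coding genes and carried a called peak in every library. These gene-body regions were 35.6% (95% Wilson interval 35.1% to 36.0%) of the 41957 regions on chromosomes 1 to 19 and X that held a peak in all 3 lists, out of 130664 regions formed by merging overlapping peaks. A region was kept when its midpoint lay between the start and the end of a protein-coding gene and more than 1 kb from every protein-coding gene's start and end. Of the other shared regions, 12196 (29.1%) lay within 1 kb of the start or end of a protein-coding gene and are called gene-end regions, and 14845 (35.4%) lay outside genes and are called intergenic. The members were selected on measured peak calls, so their presence in each list is not a finding.

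ATAC-seq uses the Tn5 transposase to cut DNA that is not wrapped in nucleosomes, so that its peaks mark promoters, enhancers and other bound sites. Within genes, such sites are mostly enhancers in introns and the alternative promoters of shorter transcripts. Sox2 is an HMG-box factor that, with Oct4, binds enhancers of pluripotency genes and can bind its motif on nucleosomal DNA. Promoters rich in CpG dinucleotides are open in most cell types, whereas enhancers are open in particular ones.

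The study addressed how electrostatic features of disordered protein segments bear on target search and chromatin opening by a transcription factor. All cells came from the mouse embryonic stem cell line CGR8 and were kept in serum with LIF and inhibitors of GSK3 (3 µM CHIR99021) and MEK (0.8 µM PD184352). The Halo-Sox2 group was the line SES4.1, which carries an inducible Halo-tagged Sox2, given doxycycline at 300 ng/mL over 20 h. The Halo-Sox2a group was the line SES5.1, which carries an inducible Halo-Sox2a, a form not described by the labels, given 70 ng/mL over 20 h. The Control group was SES11, a CGR8 derivative with no inducible transgene, for which the labels give no doxycycline dose and no staining or sorting. A fluorescent ligand of the tag (50 nM) was used for staining, and both Halo lines were collected in a common fluorescence gate. Line, transgene, dose and sorting cannot be told apart in this design.

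Each group had 1 library of 1 line, without replicates, so every difference below is between libraries and has no replicate error. The lists held 88898 peaks (Halo-Sox2), 83995 (Halo-Sox2a) and 72638 (Control), and the depth of the libraries is unknown. Members held 15241 peaks (17.1%) of the Halo-Sox2 list, 15172 (18.1%) of the Halo-Sox2a list and 15358 (21.1%) of the Control list. Scores are the authors' own values for each peak and have no stated scale. They were therefore turned into percentiles within each list, in which 100 is the highest-scoring end. Of 6 embryonic stem cell marker genes, 3 in Halo-Sox2, 5 in Halo-Sox2a and 4 in Control had a peak within 1 kb of an end, at median percentiles of 75.8, 81.3 and 62.2. Of 5 fibroblast marker genes, 4 had one in each list, at 26.4, 50.7 and 54.0. The part of other cell types in the results was not tested.

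Among the members, 1471 (9.86%) overlapped a RefSeq promoter window of a protein-coding transcript that starts inside the gene, a window being the 300 bp from 250 bp before to 50 bp after a start. These are called internal-start regions. Only the window has to overlap, and the start itself can lie outside the region, as for Lef1 below. A further 222 overlapped the window of a long noncoding RNA, and 93 overlapped a window of a start at a gene's end. The remaining 13130 (88.0%) overlapped no window. The internal starts below are shown because their windows differ in CpG content and lie in genes of the pathways these cells depend on. The sequences are the 250 bases before the start from RefSeq (GRCm38.p6), read 5′ to 3′ on the sense strand of the gene with each CG in capitals. Dnmt3a encodes a de novo DNA methyltransferase (chr12:3891494-3891743, plus strand), Lifr the LIF receptor (chr15:7129322-7129571, plus strand) and Axin2 a negative regulator and target of WNT signalling (chr11:108920099-108920348, plus strand). Lef1 encodes a WNT-responsive transcription factor (chr3:131112541-131112790, plus strand), Esrrb an orphan nuclear receptor of the pluripotency network (chr12:86421394-86421643, plus strand) and Nr5a2 another (chr1:136953631-136953880, minus strand).
Lifr: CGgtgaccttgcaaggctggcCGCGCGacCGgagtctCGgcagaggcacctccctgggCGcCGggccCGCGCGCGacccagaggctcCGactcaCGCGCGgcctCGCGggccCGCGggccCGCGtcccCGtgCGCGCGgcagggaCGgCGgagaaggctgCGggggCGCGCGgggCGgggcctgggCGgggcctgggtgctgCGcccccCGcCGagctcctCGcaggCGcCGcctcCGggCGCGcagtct
Axin2: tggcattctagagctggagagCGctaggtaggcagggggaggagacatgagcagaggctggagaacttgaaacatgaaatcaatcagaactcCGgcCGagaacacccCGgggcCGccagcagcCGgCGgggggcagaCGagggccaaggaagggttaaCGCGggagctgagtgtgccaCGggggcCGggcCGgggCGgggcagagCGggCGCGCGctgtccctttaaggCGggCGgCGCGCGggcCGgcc
Dnmt3a: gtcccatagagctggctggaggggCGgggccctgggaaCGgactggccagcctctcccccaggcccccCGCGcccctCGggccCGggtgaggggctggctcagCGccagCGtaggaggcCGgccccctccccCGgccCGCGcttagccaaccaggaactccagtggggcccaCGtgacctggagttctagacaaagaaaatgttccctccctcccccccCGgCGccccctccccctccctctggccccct
Lef1: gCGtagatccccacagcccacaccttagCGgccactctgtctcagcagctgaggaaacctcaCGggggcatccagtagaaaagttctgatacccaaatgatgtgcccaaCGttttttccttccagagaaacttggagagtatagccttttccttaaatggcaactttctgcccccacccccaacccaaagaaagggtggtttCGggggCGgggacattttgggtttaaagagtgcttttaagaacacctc
Esrrb: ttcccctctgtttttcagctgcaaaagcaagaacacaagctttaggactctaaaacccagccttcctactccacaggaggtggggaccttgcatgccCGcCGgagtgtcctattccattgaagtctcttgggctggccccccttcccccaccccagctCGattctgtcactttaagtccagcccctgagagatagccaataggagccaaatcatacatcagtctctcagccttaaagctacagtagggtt
Nr5a2: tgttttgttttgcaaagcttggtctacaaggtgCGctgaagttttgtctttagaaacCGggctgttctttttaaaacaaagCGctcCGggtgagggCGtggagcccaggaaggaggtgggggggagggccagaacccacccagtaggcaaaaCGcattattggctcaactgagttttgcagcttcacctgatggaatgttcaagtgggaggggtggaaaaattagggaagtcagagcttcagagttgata
The 250 bases held 43 CG in Lifr, 24 in Axin2, 15 in Dnmt3a, 6 in Lef1, 3 in Esrrb and 6 in Nr5a2, so the first 3 are CpG-rich and the last 3 are CpG-poor.

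Over all internal starts in members, the CpG-rich ones ranked higher. Members with a window of at least 10 CpG had median percentiles of 74.5 in Halo-Sox2, 80.7 in Halo-Sox2a and 79.8 in Control, against 65.8, 73.1 and 68.9 for members with a window of fewer CpG. Regions with windows of both kinds count in both. The 6 starts shown varied within each kind. The Lifr region scored 115 (percentile 40.4) in Halo-Sox2, 141 (61.8) in Halo-Sox2a and 130 (67.5) in Control. The Axin2 region scored 294 (72.3), 344 (87.9) and 265 (88.8). The Dnmt3a region scored 140 (48.3), 149 (64.0) and 53 (32.1). Of these CpG-rich starts, Axin2 stood highest in every list and Dnmt3a lowest in the Control list. Another internal start of Dnmt3a, not shown, had 46 CpG in its window, which overlapped another member (chr12:3806078-3806855). The start itself lay outside that member. That member differed, at percentiles 59.4, 48.9 and 77.5 in Halo-Sox2, Halo-Sox2a and Control. The Lef1 region scored 194 (59.2), 126 (58.2) and 74 (44.6) in Halo-Sox2, Halo-Sox2a and Control. The Esrrb region scored 211 (61.7), 132 (60.2) and 144 (71.0), and the Nr5a2 region 241 (66.2), 486 (94.4) and 426 (96.7). The CpG-poor Nr5a2 start was above the other 5 in the Halo-Sox2a and Control lists and below Axin2 in the Halo-Sox2 list.

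Across all members, the open regions were narrower and lower in rank than those at gene ends. The median width of a gene-body region was 771 bp (quartiles 577 and 1027 bp), against 1069 bp at gene ends and 750 bp between genes. The median percentile of a member's highest peak was 54.8 in the Halo-Sox2 list, 67.9 in Halo-Sox2a and 60.4 in Control. At gene ends these medians were 74.4, 81.3 and 80.8, and between genes 54.8, 68.7 and 63.8. Gene-body regions therefore resembled intergenic ones in width and rank more than gene ends. The middle 50% of members ranged from percentile 31.9 to 77.7 in Halo-Sox2, from 48.1 to 83.5 in Halo-Sox2a and from 39.2 to 79.1 in Control. A total of 663 members (4.44%) were in the highest 10% of all 3 lists, against 8.12% of all shared regions. This held for 1980 gene-end regions (16.2%) and 764 intergenic regions (5.15%). Over all members, scores ran from 13, the lowest in each list, to 5298, 4401 and 4101.

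**Figure D1:**
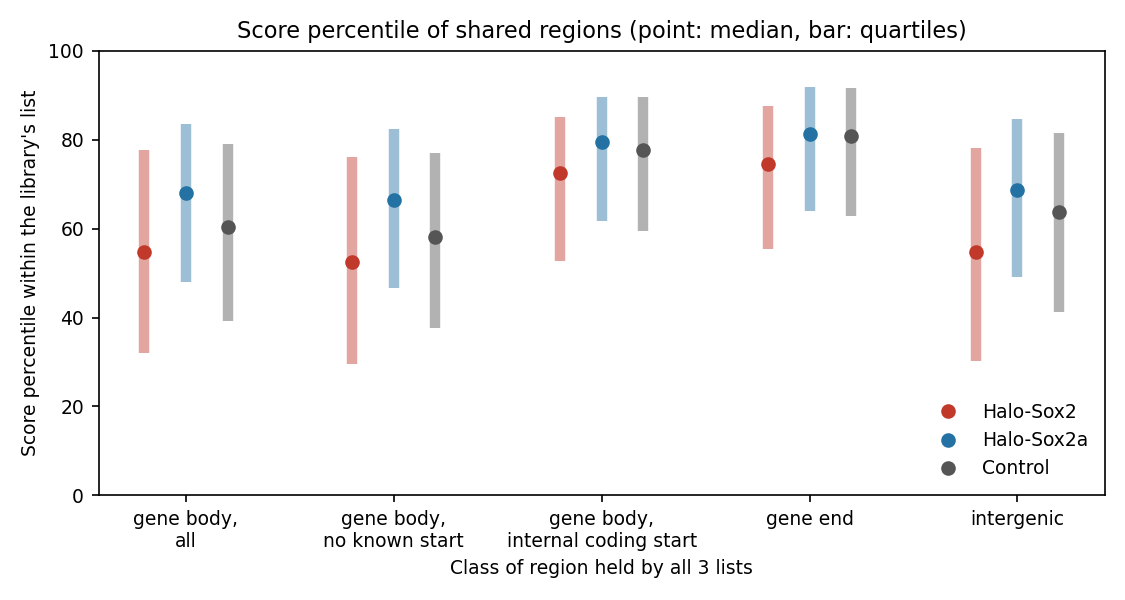
Percentile of the highest peak of each region within its library's list, for classes of regions held by all 3 lists; points are medians and bars span the quartiles. Gene-body regions without a known start sit near the intergenic regions, and those with an internal coding start sit near the gene ends in every list.

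Members with an internal start looked like gene-end regions. Their median width was 1084 bp and their median percentiles were 72.5 in Halo-Sox2, 79.5 in Halo-Sox2a and 77.8 in Control. Members without a start were 741 bp wide at the median, with percentiles of 52.5, 66.5 and 58.2. In the reverse direction, RefSeq gave 3881 internal coding windows in 2929 genes. Of these, 1836 (47.3%) overlapped a region of all 3 lists, 127 one of 2 lists, 147 one of 1 list and 1771 (45.6%) none. An internal window therefore mostly overlapped a region of all lists or no region. Windows in a region of all 3 lists held a median of 20 CpG per 300 bp and 62.0% GC, against 4 CpG and 49.0% GC for windows in none. The share with at least 10 CpG was 81.5% and 9.37%.

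Motif strings were counted in these 300-bp windows on both strands. The SOX strings ACAATGG or ACAAAGG occurred in 7.54% of the 1724 internal windows that lay in a member, in 11.2% of those in no region and in 9.33% of all 32619 windows. The composite string ATTGTNATG, which shares its ATTGT with the complement of ACAATGG, occurred in 0.290%, 1.41% and 0.932%. The OCT octamer ATGCAAAT occurred in 1.39%, 1.52% and 1.75%. The string AGGGGGC, a part of the motif of the insulator protein CTCF, occurred in 18.8%, 6.89% and 10.7%. In internal windows in a region of 2 lists or of 1 list, the SOX strings occurred in 15.7% and 18.4%, more than in either set above. There AGGGGGC occurred in 16.5% and 12.2%. AGGGGGC is rich in G and C, as are the windows in members, whereas the other strings hold more A and T. The part of base composition in these counts was not tested, and a match is a match of letters only.

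The border of the rule was not a step in these values. The 222 shared regions inside genes with a midpoint 901 to 1000 bp from a gene end had a median width of 1044.5 bp and percentiles of 55.6, 64.3 and 63.7 in Halo-Sox2, Halo-Sox2a and Control. The 187 members at 1001 to 1100 bp had 1037 bp and 51.6, 66.3 and 66.1. Most members were simple in form, as were shared regions in general. In 14139 of them (94.8%) each list had exactly 1 peak, and in 14677 (98.4%) the highest peaks of all 3 lists overlapped in a common core, with a median of 381 bp or 56.0% of the region. Over all shared regions these shares were 94.5% and 98.6%. At gene ends the core was longer, with a median of 733 bp or 71.7% of the region. Between genes it was similar to that of members, at 371 bp or 55.4%. One member in Ppp2r5a, which encodes a regulatory subunit of protein phosphatase 2A and was chosen after its values were seen, was 23367 bp wide and held 12, 1 and 13 peaks in Halo-Sox2, Halo-Sox2a and Control.

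Gene-body regions kept their rank between libraries less than gene ends did. Scores of the members in the Halo-Sox2 and Control lists had a Spearman correlation of 0.46, those in Halo-Sox2a and Control 0.66, and those in Halo-Sox2 and Halo-Sox2a 0.65 (n = 14916 regions). At gene ends the values were 0.83, 0.87 and 0.87 (n = 12196), and between genes 0.42, 0.65 and 0.62 (n = 14845). Within the members, those with an internal start gave 0.80, 0.85 and 0.85 (n = 1471), and those without a start 0.41, 0.63 and 0.62 (n = 13130). These correlations describe points that share 3 libraries and their depths, and neighbouring regions are not independent.

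Region by region, members again moved more than gene ends. The percentile was taken again among the 41957 shared regions, and a region was said to span 20 points when its highest and lowest percentile over the 3 libraries lay at least 20 points apart. This held for 8750 members (58.7%, 95% Wilson interval 57.9% to 59.5%), for 3908 gene-end regions (32.0%) and for 9263 intergenic regions (62.4%), against 52.2% of all shared regions. Among members with an internal start it held for 510 of 1471 (34.7%), and among those without a start for 8080 of 13130 (61.5%). Internal-start members whose windows held at least 10 CpG spanned 20 points in 32.5% of 1207 regions, and those with a window of fewer CpG in 43.7% of 300, with regions that hold windows of both kinds in both counts.

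The contrast between starts and other sites had the same direction at every level of rank. In 5 bands of the mean percentile, from the lowest to the highest, members without a start spanned 20 points in 44.1%, 75.2%, 77.2%, 70.2% and 31.0%. Internal-start members did so in 37.0%, 60.6%, 52.4%, 38.6% and 7.66%. Gene-end regions did so in 37.8%, 60.4%, 53.5%, 37.6% and 6.41%. The internal starts and gene ends lay close together in each band, while members without a start were above both throughout. The 95% Wilson intervals of internal-start members and members without a start did not overlap in bands 2 to 5 and overlapped in band 1. These intervals cover counting error only and treat regions as independent, although all regions share the same libraries and neighbouring regions are not independent. The bands use the mean of the same percentiles whose span was counted. The span and the bands were chosen after the data were seen, so the intervals describe the contrast and do not test it.

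**Figure D2:**
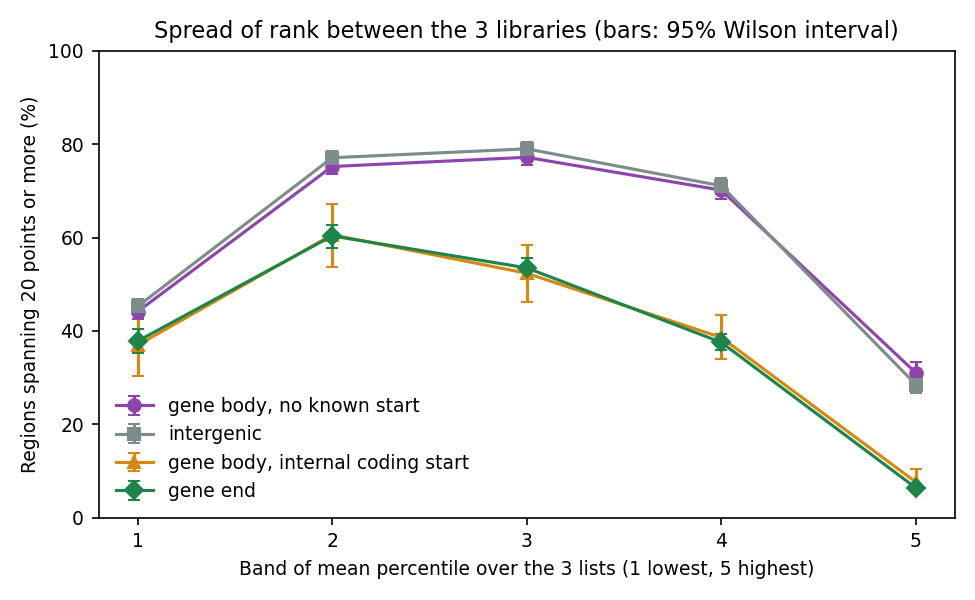
Share of regions whose percentile spans 20 points or more over the 3 libraries, by band of mean percentile, with 95% Wilson intervals. Internal-start regions follow the gene ends (7.66% and 6.41% in the highest band), and members without a known start follow the intergenic regions (31.0% in the highest band).

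The balance of shifts up and down depended on the scale. By percentile among shared regions, 3300 members (22.1%) ranked at least 20 points higher in Halo-Sox2 than in Control and 2881 (19.3%) at least 20 points lower, against 17.6% and 18.6% of all shared regions. In Halo-Sox2a, 2681 (18.0%) ranked higher than in Control and 2074 (13.9%) lower, against 14.1% and 14.3%. In Halo-Sox2 against Halo-Sox2a, 2493 (16.7%) ranked higher and 2507 (16.8%) lower, against 14.4% and 14.8%. With percentiles among all peaks of each list in place of shared regions, the shares became 17.0% and 26.7%, 21.6% and 8.84%, and 7.86% and 30.2%. The same shares over all shared regions were not taken on this scale, so they cannot be read as particular to members. On it, the median percentiles of all shared regions were 61.5, 72.2 and 67.95 in Halo-Sox2, Halo-Sox2a and Control, also lowest in Halo-Sox2. The Halo-Sox2 list is the longest of the 3, and with that scale its members more often ranked lower than higher against both other lists. The comparisons with Control use the same Control library.

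The 5 members with the highest mean percentile over the 3 lists were near the top of each list by their choice. A region of 541 bp in Myo3a, which encodes an unconventional myosin of sensory hair cells, scored 5298, 4401 and 4101 in Halo-Sox2, Halo-Sox2a and Control and ranked 4, 6 and 5 in these lists (chr2:22589476-22590016). A region of 292 bp in Gphn, the gene of the synaptic scaffold protein gephyrin, scored 1728, 1764 and 1627 (chr12:78350879-78351170). A region of 461 bp in Jarid2, a component of Polycomb repressive complex 2, scored 1528, 1669 and 1258 (chr13:44869563-44870023). An internal-start region of 1157 bp in Aktip, which encodes an AKT-interacting protein, scored 1913, 1197 and 1150 (chr8:91133481-91134637), and a region of 1292 bp in BC052040 scored 1756, 1250 and 892 (chr2:115723294-115724585). Gphn ranked 55, 21 and 12, Jarid2 116, 27 and 22, Aktip 28, 90 and 28, and BC052040 49, 69 and 79 in Halo-Sox2, Halo-Sox2a and Control.

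At the other extreme, single members ran from near the bottom of one list to near the top of another. The largest difference of Halo-Sox2 above Control was in Adgrg2, an adhesion G protein-coupled receptor, with scores of 1516, 496 and 14 in Halo-Sox2, Halo-Sox2a and Control (percentiles 99.9, 94.6 and 0.57). The region in Ism1, a secreted protein, scored 1246, 253 and 19, and that in D230025D16Rik 1069, 403 and 20. In all 3 regions the Halo-Sox2a percentile lay between those of the other libraries, which the choice of regions at opposite ends of those lists nearly fixes. The largest in the other direction were in Kl, which encodes the FGF co-receptor klotho, with 31, 82 and 410 (percentiles 4.33, 42.4 and 96.3), in Frmpd4 with 39, 257 and 420, and in Cntn5, a neuronal cell adhesion molecule, with 47, 470 and 455. In Cntn5 the Halo-Sox2a percentile, 93.8, was close to the 97.4 of Control, whereas in Kl it was 42.4.

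The members with the largest differences between Halo-Sox2a and Control were set out in the same way. The 3 that ranked higher in Halo-Sox2a were in Hikeshi, a nuclear import carrier of HSP70, with 1237, 769 and 29 in Halo-Sox2, Halo-Sox2a and Control, in Ccnt2, a cyclin of the elongation factor P-TEFb, with 1268, 606 and 32, and in Fat3, an atypical cadherin, with 1057, 795 and 42. All 3 stood above percentile 97 in both Halo lists. The 3 that ranked lower were in Gpr160 with 216, 64 and 456, in Clip4 with 268, 32 and 292, and in Erc2, a presynaptic active zone protein, with 104, 40 and 298. Here the Halo-Sox2a percentile was the lowest of the 3 libraries, as the choice of regions low in Halo-Sox2a favours.

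The largest differences between the Halo lists follow. The region in Grm8, a metabotropic glutamate receptor, scored 775 in Halo-Sox2, 13 in Halo-Sox2a and 59 in Control, that in Spata48 898, 48 and 44, and that in Pdzrn4 890, 48 and 14. The region in Fbxo8, an F-box protein, scored 46, 591 and 379, that in Clybl, a mitochondrial lyase, 53, 610 and 290, and that in Nmnat2, an enzyme of NAD synthesis in axons, 46, 556 and 394. The Control percentiles of these 6 regions were 35.8 in Grm8, 25.3 in Spata48, 0.57 in Pdzrn4, 95.3 in Fbxo8, 90.8 in Clybl and 95.8 in Nmnat2. None of the 18 members with extreme shifts had a known start, as was so for 88.0% of all members.

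Position in the gene was examined in the 3863 genes of at least 50 kb whose strand is known, which gave 7968 pairs of a member and a gene. Between 1 and 2.5 kb from the gene's start there were 356 members, against 96 at the same distance from the gene's end. From 2.5 to 5 kb there were 200 and 196, from 5 to 10 kb 352 and 281, and from 10 to 25 kb 901 and 851. The excess was thus strongest next to the start. Leaving out members with a promoter window, the nearest interval held 146 and 95, the next 116 and 188, and the others 264 and 273, and 795 and 798. Inside these genes, regions held by 1 or 2 lists showed no excess at the start, with 265 and 311 in the nearest interval. The 356 members next to the start had a median width of 1099.5 bp, and 41.0% of them spanned 20 points, whereas the 96 next to the end had 774 bp and 58.3%.

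**Figure D3:**
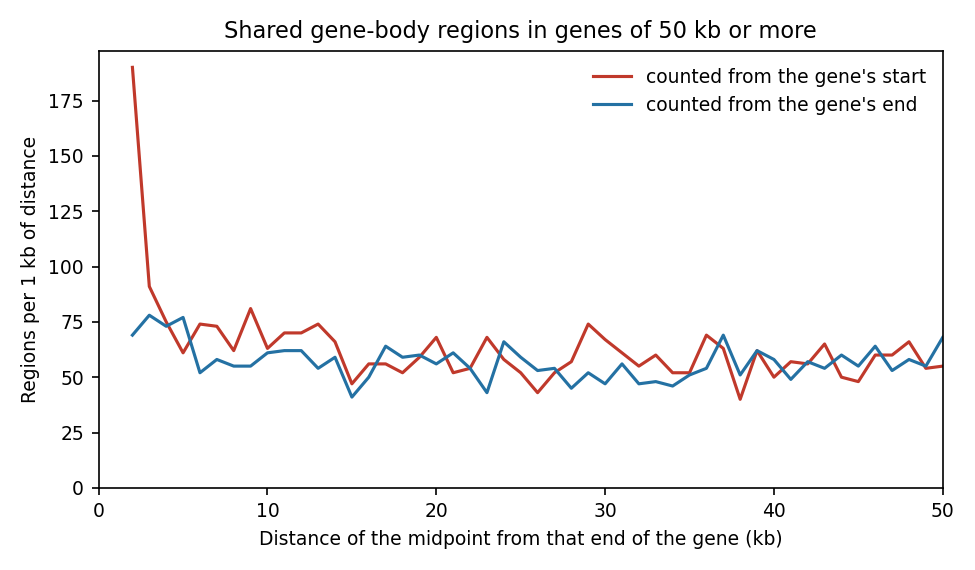
Number of gene-body regions per 1 kb of distance from the start (red) or the end (blue) of genes of 50 kb or more; the first bin shown covers 1.5 to 2.5 kb, since members lie more than 1 kb from a gene's ends. The count near the start falls from 190 in that bin to 91 in the next, and the start line stays above the end line in each bin from 6 to 15 kb.

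Members were spread over many genes. Of 19190 protein-coding genes longer than 2 kb, 7201 (37.5%) held at least 1 member, 3982 of these held 1, 1526 held 2, 1052 held 3 or 4, and 641 (8.90%) held 5 or more. The 641 genes held 4554 members (30.5%). Longer genes more often held one, from 10.8% of genes of 2 to 10 kb to 93.0% of genes above 300 kb. The density fell over the same range from 2.05 to 0.920 members per 100 kb of gene. Members lay close to each other more often than gene ends did: 1968 (13.2%) had another member within 5 kb, against 7.45% of gene-end regions with another gene-end region, and 12.8% of intergenic regions.

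The genes with most members were long. Pde4d, a cAMP phosphodiesterase, held 27 in 1301793 bp, and Tenm3, a teneurin of neuronal wiring, 25 in 1297160 bp. Ptprn2, a phosphatase-like protein of secretory vesicles, held 24, Etl4 22, Gse1 21, Zfhx3, a homeobox and zinc finger factor, 21, and Auts2, a regulator of brain development, 21. The highest counts, 29, 28 and 28, belonged to Gm37013, Gm38667 and Gm38666, overlapping gene models over the protocadherin cluster on chromosome 18 that share 28 regions. Per length, among genes of at least 50 kb with at least 5 members, Jade1, a subunit of a histone acetyltransferase complex, stood first with 8 members or 13.1 per 100 kb. Etv5, an ETS factor downstream of FGF and ERK, followed with 7 or 12.0 per 100 kb, then Dapp1 with 6 or 11.9, and Ptch1, the Hedgehog receptor, with 7 or 10.7. Lemd1, Foxp4, Shank3, Acss1, Lrrc36 and Bcat1 held 5 to 8 members each, at 9.72 to 10.5 per 100 kb. Acss1, a mitochondrial acetyl-CoA synthetase, had the highest median percentiles of these 10 dense genes, 89.6, 87.3 and 82.3 in Halo-Sox2, Halo-Sox2a and Control.

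Density differed between chromosomes. Chromosome 8 held 1141 members, or 22.0 per Mb of protein-coding gene, against 12.5 to 15.9 on the other 18 autosomes and 7.18 on X. Chromosome 8 also held 1044 intergenic shared regions, against 312 to 1097 on the other autosomes. Gene-end regions on chromosome 8 were within the autosomal range, with 13.6 per Mb against 8.59 to 16.4. All peaks were also denser there, with 113, 106 and 98.5 per Mb of gene in Halo-Sox2, Halo-Sox2a and Control against highest values of 101, 93.7 and 82.9 on the other autosomes. The median percentile of gene-end regions on chromosome 8 was 84.8, 89.0 and 89.3, above the other autosomes in each list, where the highest values were 78.4, 84.9 and 84.9. The median percentile of members on chromosome 8 was 56.9 in Halo-Sox2 and 69.2 in Halo-Sox2a, both within the range of the other autosomes, and 64.2 in Control, above their highest value of 62.1. The share ranked lower in Halo-Sox2 than in Control was 22.6%, against 15.6% to 22.0% on the other autosomes. The part of these values in the density of members was not tested, and the copy number of the chromosome in these lines was not analysed here.

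**Figure D4:**
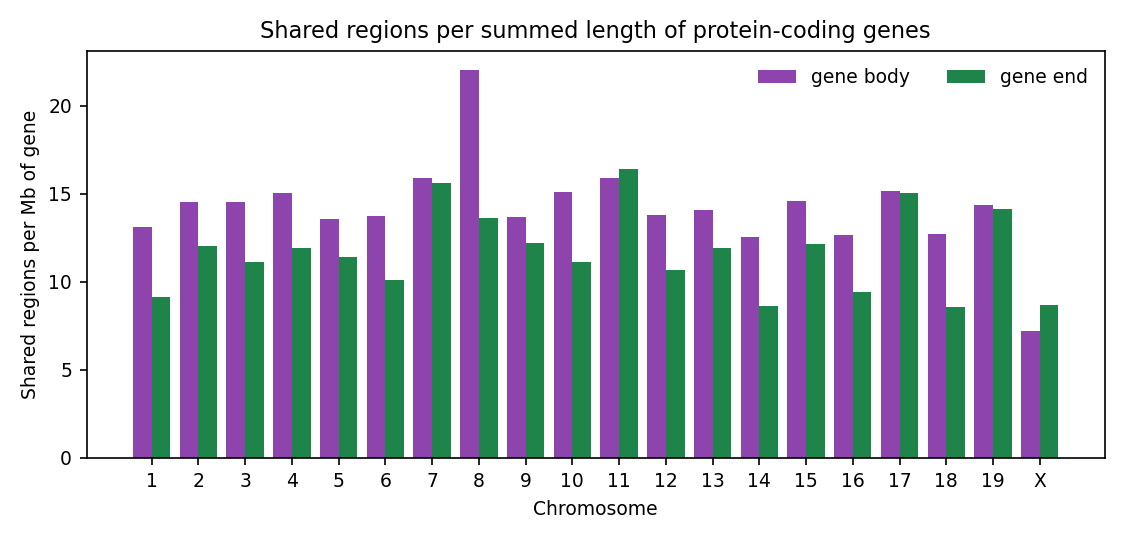
Shared gene-body and gene-end regions per Mb of summed protein-coding gene length on each chromosome. Gene-body regions on chromosome 8 stand at 22.0 per Mb, above the 12.5 to 15.9 of the other autosomes, and X is lowest at 7.18.

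The pluripotency genes held 26 members in 11 of 24 genes, or 4.52 per 100 kb of gene, against 1.43 over all genes. Since most of these genes are short, the count rests on a few loci. For this list and those below, 37.5% of all genes longer than 2 kb held a member, and this share rose with gene length. Here and in the lists that follow, the highest member of a gene is the one with the highest mean percentile over the 3 lists, and another member can score higher in a single list. Esrrb alone held 11 members over 161 kb, and Pou5f1, Sox2, Nanog and Klf4, which are under 10 kb long, held none. The highest member in Esrrb scored 686, 552 and 296 in Halo-Sox2, Halo-Sox2a and Control (percentiles 93.9, 96.0 and 91.2) and lay 141 kb from the gene's start (chr12:86501556-86502487). Percentiles in Esrrb otherwise went down to 15.8, 22.9 and 26.3. Of the 11, 3 ranked at least 20 points higher in Halo-Sox2 than in Control and 1 lower. Tfcp2l1, a grainyhead-family factor of the naive state, had 2, with 738, 621 and 419 (chr1:118647714-118648713) and with 1111, 611 and 142 (chr1:118642368-118643241). Mybl2, a cell cycle factor, had 2, with 525, 534 and 451 (chr2:163061752-163062722) and with 1064, 269 and 81 (chr2:163074931-163075796). In both genes the second member stood higher in Halo-Sox2 and lower in Control than the first. Over the list, 7 members (26.9%) ranked higher and 2 (7.69%) lower in Halo-Sox2 than in Control. Among all members these shares were 22.1% and 19.3%. In Halo-Sox2a, 4 (15.4%) ranked higher and 2 (7.69%) lower than in Control, against 18.0% and 13.9% of all members.

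The formative and primed genes, which are switched on as naive cells progress towards lineage commitment, held 24 members in 9 of 16 genes (3.89 per 100 kb). Etv5 had 7 of them between 10.5 and 41.0 kb from its start. The highest scored 506, 277 and 182 in Halo-Sox2, Halo-Sox2a and Control (chr16:22428386-22429707). In Etv5, 1 of the 7 ranked lower in Halo-Sox2 than in Control, and none shifted between Halo-Sox2a and Control. Fgf5, a growth factor of the epiblast, had 1 member, which scored 202, 579 and 314 (percentiles 60.2, 96.5 and 92.3). Lef1 had 4, of which 3 ranked higher in Halo-Sox2 than in Control. Its highest by mean percentile scored 394, 282 and 83 (chr3:131144051-131144777). Lef1 and Etv5 thus differed, with shifts upward in one and nearly none in the other. The list as a whole had 7 higher (29.2%) and 3 lower (12.5%) members in Halo-Sox2 against Control, with 22.1% and 19.3% among all members.

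**Figure D5:**
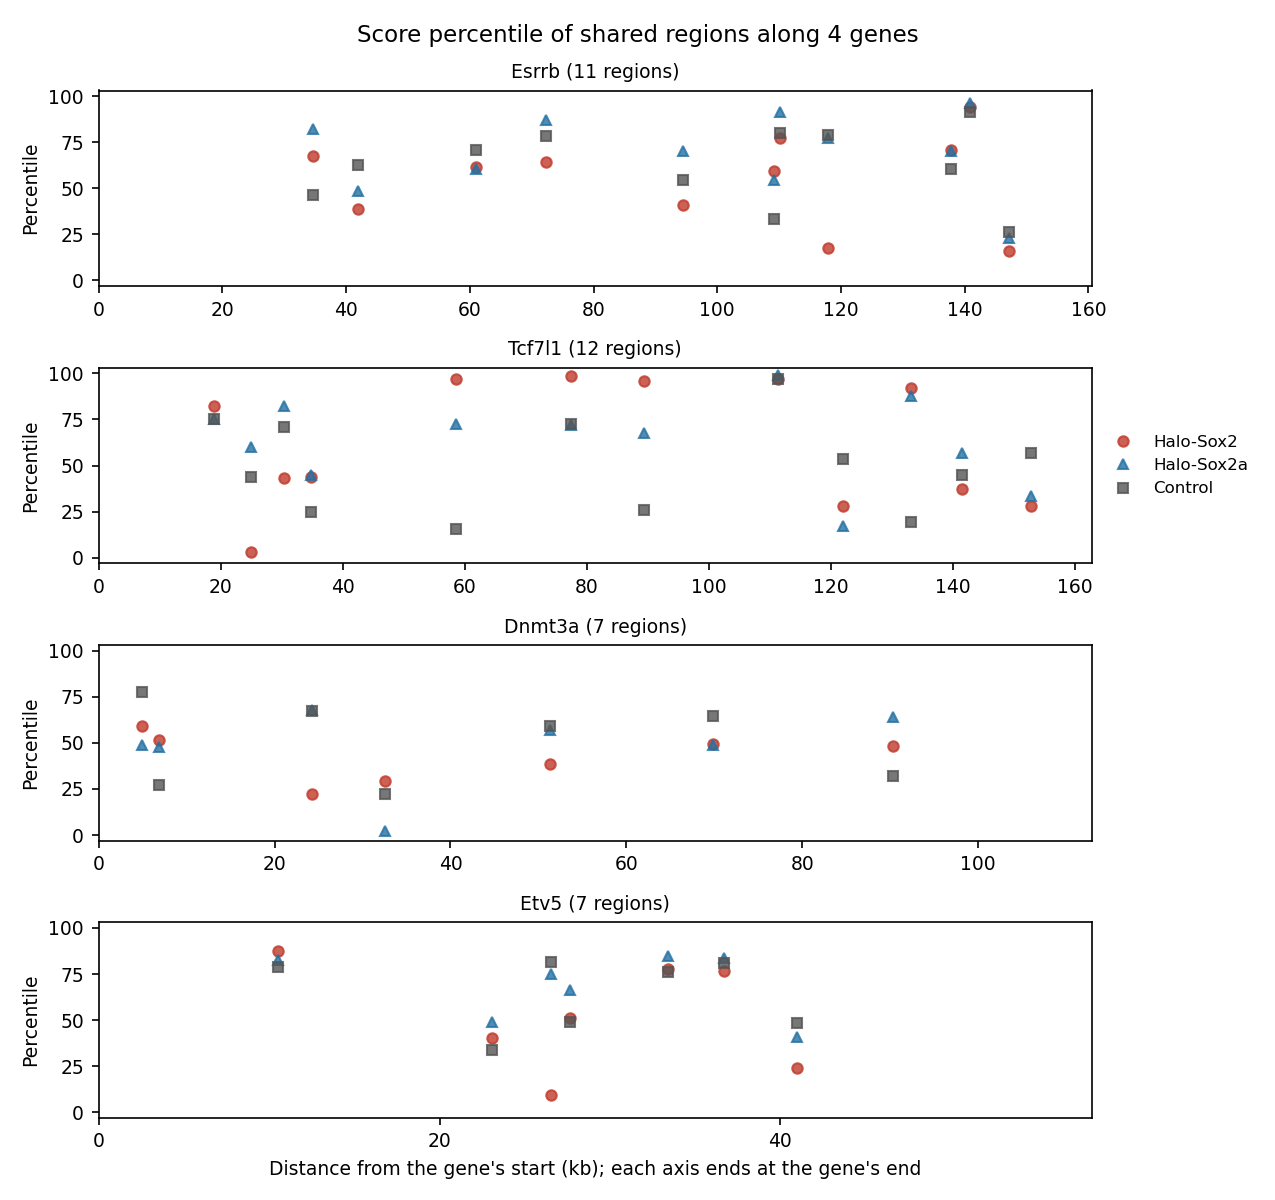
Percentile within each library's list of every member in Esrrb (11), Tcf7l1 (12), Dnmt3a (7) and Etv5 (7), by distance of the region's midpoint from the gene's start. In Tcf7l1 several regions are far higher in Halo-Sox2 than in Control, while most regions of Etv5 have similar percentiles in all 3 lists.

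The WNT genes held 31 members in 11 of 16 genes (2.19 per 100 kb). Tcf7l1, the repressor through which WNT signals are read in pluripotent cells, had 12, and 5 of them ranked at least 20 points higher in Halo-Sox2 than in Control and 2 lower. Its highest member by mean percentile overlapped a long noncoding RNA start and scored 862, 827 and 437 in Halo-Sox2, Halo-Sox2a and Control (chr6:72677262-72678328). Tcf7l2 had 5, of which 2 ranked higher in Halo-Sox2 and none lower. Axin1 and Axin2, scaffolds of the complex that degrades beta-catenin, had 1 each, in Axin1 at percentiles 93.2, 95.1 and 96.3. Ctnnb1, which encodes beta-catenin, had none. The list as a whole had 9 higher (29.0%) and 4 lower (12.9%) in Halo-Sox2 against Control, with 22.1% and 19.3% among all members.

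The FGF and ERK genes, whose kinase MEK is inhibited by the medium of these cells, held 23 members in 12 of 19 genes (2.60 per 100 kb). Among the receptors, Fgfr1 had 4, Fgfr2 3 and Fgfr3 1. The highest in Fgfr1 scored 786, 482 and 177 in Halo-Sox2, Halo-Sox2a and Control (chr8:25544694-25545491). Among the inhibitors, Spred2 had 4, of which 3 ranked higher in Halo-Sox2 than in Control and 1 lower. The list had 9 higher (39.1%) and 5 lower (21.7%) in Halo-Sox2 against Control. These shares were 22.1% and 19.3% among all members and 17.6% and 18.6% among all shared regions. In Halo-Sox2a against Control the list had 4 higher (17.4%) and 5 lower (21.7%), with 18.0% and 13.9% among all members.

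The LIF and STAT3 genes held 6 members in 3 of 8 genes, 4 of them in Lifr. The highest of these by mean percentile scored 182, 256 and 270 in Halo-Sox2, Halo-Sox2a and Control (chr15:7115064-7117276). In Lifr, 3 ranked lower in Halo-Sox2 than in Control and 1 higher. Il6st, which encodes the co-receptor gp130, had 1 member, and Jak1 and Stat3 had none. The TGF-beta, Nodal and BMP genes held 28 members in 15 of 22 genes (1.63 per 100 kb). Bmpr1b, a BMP receptor, had 5, the highest at 1767, 1013 and 983 (chr3:141848922-141849952). Smad3, a mediator of Nodal signals, had 1 at 330, 382 and 27, so that it stood at percentile 8.73 in Control and at 75.9 and 90.1 in the Halo lists. The TGF-beta, Nodal and BMP list had 7 higher (25.0%) and 5 lower (17.9%) in Halo-Sox2 against Control, with 22.1% and 19.3% among all members.

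Genes of chromatin and DNA methylation held 42 members in 14 of 25 genes (2.01 per 100 kb). Arid1b, a subunit of the BAF remodeller, had 9, Dnmt3a 7 and Jarid2 5. The highest of the 7 in Dnmt3a by mean percentile overlapped the window of an internal start (chr12:3806078-3806855). It scored 195, 99 and 175 in Halo-Sox2, Halo-Sox2a and Control. No member of Dnmt3a exceeded percentile 77.5 in any list. Tet2, a 5-methylcytosine oxidase, had 3, and all stood at percentile 75.6 or above in each list, with the highest at 1178, 957 and 255 (chr3:133524219-133525436). Dnmt3b, Dnmt3l, Ep300 and Ezh2 had none. The list had 12 higher and 8 lower in Halo-Sox2 against Control, and 10 and 7 in Halo-Sox2a.

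Regulators of differentiated lineages also held members. The list, mostly of short genes, had 22 in 12 of 20 genes (6.36 per 100 kb). Of these, 3 (13.6%) ranked higher and 1 (4.55%) lower in Halo-Sox2 than in Control, against 22.1% and 19.3% of all members. Pax6, a regulator of the eye and the neural tube, had 5 in 29.5 kb, the highest at 299, 184 and 185 in Halo-Sox2, Halo-Sox2a and Control (chr2:105691270-105691702). Gata4, an endoderm and heart factor, had 3. Cdx2, a trophectoderm factor, had 1 at percentiles 85.5, 85.9 and 82.3. Sox17, an endoderm factor of the Sox2 family, had 1 at 273, 528 and 149 (percentiles 69.9, 95.4 and 72.5).

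Long genes of neuronal adhesion and synapses all held members, 242 in 25 of 25 genes, at a density of 0.680 per 100 kb. These genes are all longer than 300 kb. Of all genes above 300 kb, 93.0% held a member, at 0.920 per 100 kb. Cntnap2 had 20, Nrxn3 18 and Magi2 18, while Dcc and Nrg3 had 1 each in over 1000 kb. In this list 45 members (18.6%) ranked higher and 65 (26.9%) lower in Halo-Sox2 than in Control. The 5 genes given next were chosen after their values were seen. Robo2, a guidance receptor, had 6 lower and none higher of 10, and Dmd, which encodes dystrophin, 5 lower and none higher of 11. Nrxn3 had 5 higher and 2 lower of 18, Cntnap2 5 and 3 of 20, and Opcml, a neuronal adhesion protein, 4 and 1 of 9. In Halo-Sox2a against Control, 28 (11.6%) were higher and 48 (19.8%) lower. The cytoskeleton and polarity genes held 76 members in 15 of 20 genes (1.96 per 100 kb), led by Dst with 16 and Pard3 with 15. In it 23 (30.3%) ranked higher and 15 (19.7%) lower in Halo-Sox2 against Control, and 19 (25.0%) and 9 (11.8%) in Halo-Sox2a. Cdh1, which encodes E-cadherin, had 6, the highest at 566, 419 and 308 (chr8:106610584-106611894). None of these list counts is tested, and the shares among all members were 22.1% and 19.3% for Halo-Sox2 and 18.0% and 13.9% for Halo-Sox2a.

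MicroRNA genes often lie inside other genes, and 28 hairpins overlapped 27 members. The 3 hairpins of microRNA families typical of pluripotent cells are shown by their mature 3p strands from RefSeq (GRCm38.p6), 5′ to 3′, with the seed (bases 2 to 8) in capitals. These microRNAs promote the cell cycle of pluripotent cells.
miR-302b-3p: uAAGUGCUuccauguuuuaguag
miR-302c-3p: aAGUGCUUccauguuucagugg
miR-295-3p: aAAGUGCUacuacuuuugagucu
The seeds of miR-302b-3p and miR-295-3p are identical, and miR-302c-3p has the same core shifted by a base. The region over Mir302b and Mir302c lies in Larp7, a protein of the 7SK complex, and overlaps a long noncoding RNA start (chr3:127544437-127545387). It ends inside the Mir302c hairpin, before the 3p strand. It scored 520, 636 and 521 in Halo-Sox2, Halo-Sox2a and Control (percentiles 88.4, 97.5 and 98.5). The region over Mir295 lies in Nlrp12 (chr7:3220797-3222696) and scored 101, 221 and 262 (36.6, 76.6 and 88.6). Both regions had their lowest percentile in the Halo-Sox2 list. The medians on this scale were also lowest there, at 66.5, 75.2 and 77.4 over the 27 members and 54.8, 67.9 and 60.4 over all members. Over the 27 members the percentiles ran from 3.18 to 99.2 in Halo-Sox2, from 30.3 to 98.0 in Halo-Sox2a and from 6.3 to 99.7 in Control.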

How the data were processed

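Chromatin accessibility was measured by ATAC-seq in 3 libraries, 1 per group, grouped by their labels. Per the submitters' processing notes, mm10, STAR, SAMtools, MACS2 3.0.0a7, MACS3 and deepTools 3.3.0 were used, with roles, thresholds and any Tn5 shift not given in the sources used here. The deposited peak lists give 1 score per peak, set by the authors on an unstated scale, so scores were ranked within a list only. Peak names carry single libraries, so peaks were called per library. Depth is unknown, so a region absent from a list need not be closed.

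Peaks overlapping by 1 bp or more were merged, coordinates made 1-based, and each region given its highest score per list. Gene and promoter positions are RefSeq GRCm38.p6, which has the coordinates of mm10. Strand was known for 17274 of 21631 genes. No genome was used here, so exons, introns and region sequences were not analysed. With 1 library per group no test was run. Wilson 95% intervals cover counting error only. Python 3.11.15, pandas 2.3.3 and numpy 2.4.6 were used, and the merging and classing were tested on simulated data. A doubled cut on scores, lists of equal size, other distances, overlaps, scales and shifts were alternatives.

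The members and lists were chosen with earlier results of these data known. Named are the 10 genes with most members, the 10 densest genes of at least 50 kb with at least 5, genes of 10 lists, the 5 highest members, the 3 largest shifts each way per pair, and the highest member in a list gene. Some genes of the lists are not reported here by name.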

Additional observations from a re-analysis of the deposited data

How the results depend on the processing

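Of 226 values recomputed under 10 alternatives, 157 stayed within the interval of the reported value, or within 1.5 times for counts of genes or list members, and 69 did not. In every alternative the share of regions spanning 20 points was higher for members than for internal-start members and gene ends. This span and its bands were chosen after seeing the data. No paired analysis was possible because each group has 1 library.

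Values below are in the order Halo-Sox2, Halo-Sox2a and Control for percentiles, and Halo-Sox2 with Control, Halo-Sox2a with Control and Halo-Sox2 with Halo-Sox2a for correlations and for shares ranked higher and lower. At 2.5 kb from gene ends, members were 30.9% of shared regions and 756 bp wide, with correlations of 0.43, 0.65 and 0.63. Shares were 23.4% higher and 20.0% lower, 19.1% higher, and 17.9% lower, and spans held in 60.7% of members and 35.1% of gene ends. With ends of all genes, the share was 33.7% and the gene-end span 35.6%.

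With lists of equal size the share was 34.5%, the width 796 bp, the percentiles 61.7, 72.0 and 64.5, and the correlations 0.42, 0.65 and 0.61. Shifts were 23.6% higher and 20.4% lower, 18.8% higher, and 17.9% higher and 17.7% lower, with spans of 60.9% in members and 35.2% at gene ends. With peaks above percentile 25 the share was 33.0%, the width 821 bp, the percentiles 65.3, 75.7 and 69.1, and the correlations 0.44, 0.63 and 0.62. Shifts were 23.3% and 20.2%, 19.4% and 14.9%, and 17.7% and 17.9%, with spans of 61.3% in members, 39.8% at internal starts and 37.4% at gene ends. With this filter the FGF and ERK and the TGF-beta lists each held 15 members, and 68 of 70 list counts stayed within 1.5 times.

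With percentiles among all peaks, shifts were 17.0% higher and 26.7% lower, 21.6% and 8.84%, and 7.86% and 30.2%, so the order turned for Halo-Sox2 against Control. Shares over all shared regions were not taken on that scale. Spans were 60.9% in members, 28.4% at internal starts and 27.4% at gene ends. At 30 points, shifts were 15.3% and 10.8%, 10.3% and 6.43%, and 9.39% and 8.89%, and spans 37.5%, 14.3% and 13.8%. Scores of at least 2 times the lowest gave percentiles of 56.5, 69.2 and 61.8, and summed scores a gene-end span of 32.9%. The cause of these moves was not tested, apart from the smaller number of regions or larger shift that an alternative sets. The unknown depth limits all of these values.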
